A study of Homo sapiens with 22 samples.

Results

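HK2, GPI, PFKM, ALDOA, TPI1, GAPDH, PGK1, ENO1, PKM and LDHA encode enzymes of glycolysis, and their promoters were examined for peaks of N-MYC and WDR5 in neuroblastoma cells. They are 10 of the 20162 protein-coding genes in the annotation, GENCODE 44 mapped to GRCh37 (hg19). A gene was counted as having a peak in a library when the middle of a peak lay within 1 kb of any of its annotated transcription start sites (TSSs). By this rule the 10 genes held 115 of the 94408 peaks in the 16 lists, 97 of them for N-MYC and 18 for WDR5, and overlapping peaks merged into 19 sites.

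The lists came from chromatin immunoprecipitation and sequencing (ChIP-seq) in CHP-134 and IMR-32, established neuroblastoma lines in which the N-MYC gene is amplified. For each antibody there were 3 libraries of CHP-134 cells given DMSO for 4 h, 3 of CHP-134 cells given a compound for 4 h, and 2 of IMR-32 cells that had no treatment. The compound is C38b in the sample titles and 419C91 as the agent, and DMSO stands at 0.0005% in the treatment text and 0.005% in the extraction text, so neither the compound nor its dose is identified here. All cells were grown in the same medium with serum, and each library pooled 3 ChIPs of identical samples. The study's methods describe its ChIP-seq as repeated independently, while the sample labels do not tie the libraries to separate cultures. The lines were sequenced on different instruments, CHP-134 as single and IMR-32 as paired reads, so the cell line and the sequencing run cannot be told apart. The 6 IgG samples were not analysed here.

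Glycolysis turns glucose into pyruvate in the cytosol. Hexokinase traps glucose in the cell, the upper enzymes split the sugar into a pair of trioses, the lower enzymes draw ATP and NADH from them, and lactate dehydrogenase restores NAD+ by turning pyruvate into lactate. MYC proteins bind DNA with MAX at E-boxes, of which CACGTG is the classical form, and glycolytic enzymes are long known among the genes MYC binds. WDR5 is a WD40-repeat scaffold of histone methyltransferase complexes that can also contact MYC.

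The E-boxes below are shown because the N-MYC summits, the points of highest pileup in a peak, lay on or beside most of them. CACGTG is in capitals within 30 bases of the GRCh37 sequence, written 5′ to 3′ on the strand of the gene.

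HK2, chr2:75062091-75062120, plus strand, intron 1: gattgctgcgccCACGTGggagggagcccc
HK2, chr2:75062136-75062165, plus strand, intron 1: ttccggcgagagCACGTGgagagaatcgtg
GPI, chr19:34850205-34850234, plus strand, upstream: gcagcgcgtgcgCACGTGcactcaccacgt
PFKM, chr12:48513534-48513563, plus strand, intron 1: tgcttatatacgCACGTGattttagagata
ALDOA, chr16:30075694-30075723, plus strand, upstream: tggcagggaggcCACGTGatccgagtcccc
GAPDH, chr12:6644337-6644366, plus strand, intron 2: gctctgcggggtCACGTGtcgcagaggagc
PGK1, chrX:77166040-77166069, plus strand, upstream, beside a TSS of ATP7A: cgcgttccttttCACGTGaccagtcgctct
ENO1, chr1:8939327-8939356, minus strand, upstream: gcgcaggcggcgCACGTGgccccggacacg
ENO1, chr1:8938374-8938403, minus strand, intron 1: agtgcagatcaaCACGTGattaccgactgc
LDHA, chr11:18415913-18415942, plus strand, upstream: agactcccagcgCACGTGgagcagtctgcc
LDHA, chr11:18416011-18416040, plus strand, upstream: cagcccgactcaCACGTGggttcccgcacg

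N-MYC peaks were listed at all 10 glycolysis genes in CHP-134 cells and at 8 of them in IMR-32 cells. The call asks for a peak in at least 2 libraries of a group. With DMSO, 10 of 10 genes met it, where 38.8% of all protein-coding genes did. Under the compound it was again 10 of 10, against 30.8% of all genes. In IMR-32 it was 8 of 10, against 15.9%. The 10 genes were chosen with earlier results of these data known, so these shares describe the list and were not tested. Of 23 other glycolysis genes, 26.1% met the call with DMSO. WDR5 met the same call at 1 of the 10 genes, GAPDH, in each of the 3 groups, where the share of all genes was 8.53% with DMSO, 1.35% under the compound and 4.90% in IMR-32. The WDR5 count became 0 with DMSO without replicate 1 or 2, and 0 under the compound without replicate 1 or 3 or with a −log10 q-value of at least 5. The WDR5 share of the glycolysis genes was thus near the background in DMSO-treated and untreated cells.

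The glycolysis genes have more annotated TSSs than most, with a median of 14.5 (3 to 28) against 5 over all protein-coding genes. Counted at the canonical TSS alone, N-MYC met the call at 10 genes with DMSO, 9 under the compound and 6 in IMR-32, where the shares of all genes were 35.5%, 27.8% and 14.1%. The gene lost under the compound was PGK1. With DMSO, PGK1 met the call at that TSS only through peaks at separate sites, each listed in 1 library. In IMR-32, GPI, PFKM, ALDOA and PGK1 did not meet the call at that TSS.

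**Figure D1:**
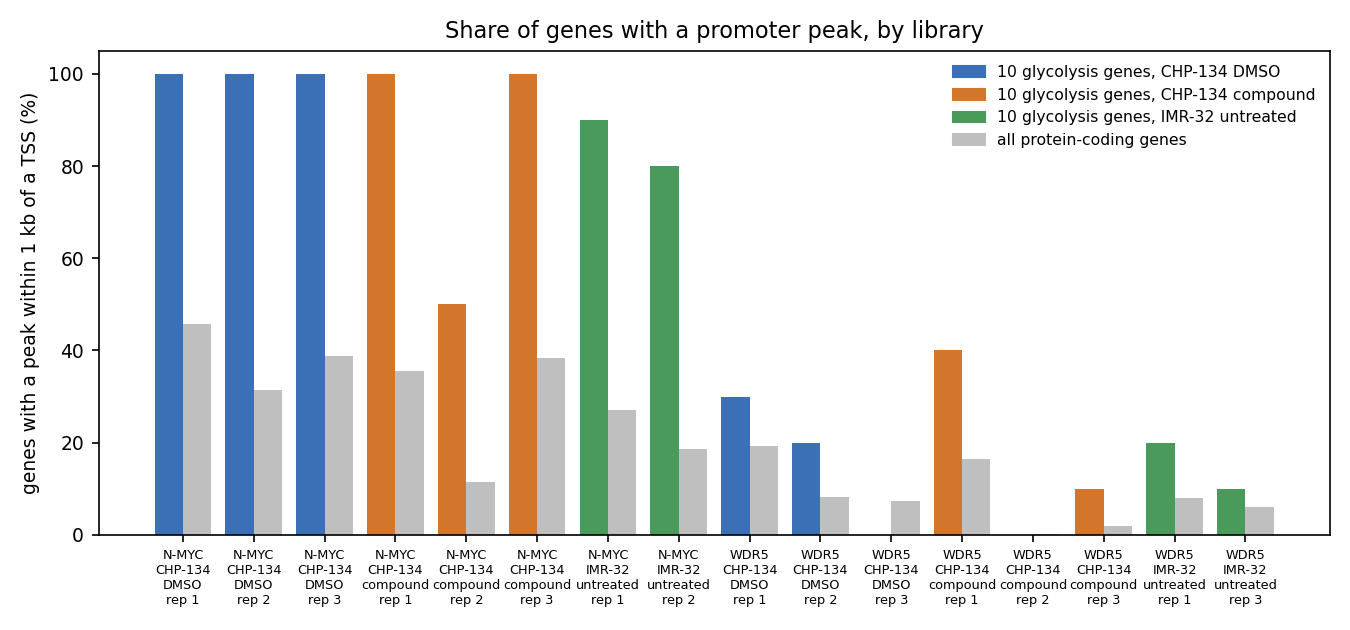
Share of genes (%, vertical axis from 0) with a peak within 1 kb of a TSS in each of the 16 libraries, as coloured bars for the 10 glycolysis genes and grey bars for all 20162 protein-coding genes. The glycolysis share is 100% in 5 of the 8 N-MYC libraries, 50% in replicate 2 under the compound, and 0 to 40% in the WDR5 libraries.

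The libraries differed in how many peaks they list. The N-MYC lists hold 9125 to 15286 peaks with DMSO, 11249, 2964 and 12313 under the compound, and 8286 and 5242 in IMR-32. The WDR5 lists hold 1671 to 4891 peaks with DMSO, 5973, 15 and 401 under the compound, and 1693 and 1258 in IMR-32. Replicate 2 under the compound is the shortest list for both proteins, and the 5 glycolysis genes without an N-MYC peak in it (GPI, PFKM, ALDOA, TPI1 and PGK1) each have one in the other two compound libraries. Without replicate 1 or without replicate 3, the count under the compound is 5 of 10 in place of 10. Markers of adrenergic neuroblastoma were looked up in the same way: N-MYC met the call at 2 of 7 (HAND2 and GATA3) with DMSO, 1 of 7 under the compound and 2 of 7 in IMR-32 (28.6%, 14.3% and 28.6%, beside 38.8%, 30.8% and 15.9% of all genes), and WDR5 at none.

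To compare peaks within a list, the authors' fold of each peak over local background was turned into its percentile among all peaks of its own library, so that 100 is the strongest peak listed. Where a gene had several peaks, the highest was used. The 10 genes spread over nearly the whole range. Their median percentile in CHP-134 with DMSO was 57.5, and that of all 7816 genes that met the call was 55.6. Under the compound the medians were 57.8 and 56.8, and in IMR-32, over the 8 genes that met the call, 70.3 against 63.4.

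HK2, the hexokinase that cancer cells often express and the enzyme of the opening step, held strong N-MYC peaks. Its percentile was 98.5, 80.2 and 99.6 in DMSO replicates 1 to 3, 95.8, 51.5 and 98.3 under the compound, and 98.4 and 96.8 in IMR-32. In DMSO replicate 3 it ranked 56 of 12283 peaks by fold. Only replicate 2 of each CHP-134 group stood below 95. The summits lay 853 to 978 bp into the gene in all 8 lists, in intron 1, and the paired E-boxes printed above start at 849 and 894 bp. An E-box lay within 100 bp of all 8 summits and both lay within 100 bp of 6 of them. A weaker peak at the TSS itself was listed in 2 DMSO libraries and 1 compound library, at percentiles of 32.0 to 58.5, where the divergent lncRNA HK2-DT also starts.

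GPI, the isomerase that turns glucose 6-phosphate into fructose 6-phosphate, had its main N-MYC site far from the canonical TSS, with summits between -5902 and -5736 bp. Its percentile was 74.7, 49.0 and 45.2 with DMSO, 53.6 and 16.8 in compound replicates 1 and 3, and 29.6 and 42.7 in IMR-32. A TSS of GPI that is not among the basic transcripts and a lncRNA gene, ENSG00000267219, start inside this site. At the canonical TSS a peak was listed in 2 DMSO and 2 compound libraries, at 10.3 to 39.3, and in neither IMR-32 library. The single E-box of the upstream site lay within 100 bp of 4 of its 7 summits.

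PFKM, the muscle-type phosphofructokinase of the committed step, was of middling rank. Its percentile was 56.5, 20.5 and 41.7 with DMSO, 83.8 and 59.8 in compound replicates 1 and 3, and 38.8 in IMR-32 replicate 1, with no peak in IMR-32 replicate 2. Both listed compound values stood above all 3 DMSO values, and compound replicate 2 listed no peak. The summits lay at 245 to 376 bp, in intron 1, and 4 of the 6 lay within 100 bp of the E-box at 399 bp.

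ALDOA, the aldolase that splits the sugar, carried 2 N-MYC sites. The site next to the canonical TSS stood at 23.1, 63.4 and 52.8 with DMSO, 9.83 and 31.0 in compound replicates 1 and 3, and 59.0 in IMR-32 replicate 1. The other, with summits at -1402 to -1302 bp, held an E-box within 100 bp of all 6 summits, yet ranked low, at 8.64 and 11.3 in DMSO replicates 1 and 2, 14.0 and 44.2 under the compound, and 5.59 and 30.5 in IMR-32. The stronger site of the pair in DMSO thus was the one with no E-box near its summits.

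TPI1, the triose phosphate isomerase, had the lowest mean N-MYC percentile of the listed genes in each group. Its percentile was 11.8, 38.7 and 30.2 with DMSO, 0.605 and 3.36 in compound replicates 1 and 3, and 27.1 and 41.8 in IMR-32. Both compound values were below all DMSO values. All 7 summits lay in intron 1, at 355 to 519 bp, and no CACGTG was found within 1 kb of any of them.

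GAPDH, which oxidises glyceraldehyde 3-phosphate and yields NADH, had the N-MYC peak that varied least among the DMSO libraries. Its percentile was 96.9, 95.1 and 96.0 with DMSO, 96.0, 92.0 and 95.5 under the compound, and 98.3 and 88.5 in IMR-32. It was at or above 88.5 in all 8 lists, including the list of 2964 peaks. The strongest summit lay upstream, between -418 and -251 bp, with no CACGTG within 100 bp, and the divergent lncRNA GAPDH-DT starts inside the same site. A further N-MYC summit was called inside intron 2, at 706 bp in DMSO replicate 3 and at 689 and 660 bp in IMR-32, all 3 within 100 bp of the E-box at 666 bp.

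PGK1, the phosphoglycerate kinase of the first ATP-yielding step, was called mainly through a distant TSS. Its percentile was 54.0, 61.8 and 51.1 with DMSO, 35.4 and 58.3 in compound replicates 1 and 3, and no peak was listed in IMR-32. In 4 of these 5 lists the strongest peak lay between -193751 and -193649 bp, where a PGK1 transcript starts beside the promoter of ATP7A, a copper transporter, so the peak cannot be assigned to either gene. Peaks around the canonical TSS were listed once at 807 bp (DMSO replicate 1, 53.3), once at -624 bp (DMSO replicate 3, 51.1) and once at -268 bp (compound replicate 3, 40.1). An E-box lay within 100 bp of 6 of the 7 PGK1 summits.

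ENO1, the enolase, held strong N-MYC peaks in CHP-134. Its percentile was 98.3, 81.1 and 96.3 with DMSO, 86.9, 40.5 and 97.2 under the compound, and 71.7 and 44.8 in IMR-32. Both IMR-32 values were below all 3 DMSO values. Its site of 1647 bp, over which the antisense lncRNA ENO1-AS1 also starts, holds 5 E-boxes, the most of the 19 sites. The summit of the strongest peak fell either upstream, at -582 bp (DMSO replicate 1) and -612 bp (compound replicate 3), or in intron 1, at 323 to 348 bp in the other 4 CHP-134 libraries. Of its 9 N-MYC peaks, 8 had an E-box within 100 bp of the summit and 5 had several.

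PKM, the pyruvate kinase, varied most of the 10 genes among the DMSO libraries. At its promoter site the percentile was 88.6, 57.5 and 14.5 with DMSO, 85.5, 13.4 and 50.2 under the compound, and 90.6 and 74.0 in IMR-32. In DMSO replicate 3 a peak at 751 bp, in intron 1, ranked higher, at 30.2. The promoter summits lay at -211 to -47 bp, with no CACGTG within 1 kb of any of the 8.

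LDHA, which makes lactate, held a strong peak just upstream of its TSS. Its percentile was 98.2, 89.6 and 62.8 with DMSO, 98.1, 22.3 and 77.5 under the compound, and 96.8 and 97.8 in IMR-32. The summits stayed between -149 and -92 bp in all 8 lists, between the E-boxes that start at -185 and -87 bp, and both E-boxes lay within 100 bp of every one of the 8. A weaker site at 1218 to 1693 bp, listed in 2 DMSO and 2 compound libraries at 14.6 to 35.5, had no CACGTG within 1 kb of its summits.

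**Figure D2:**
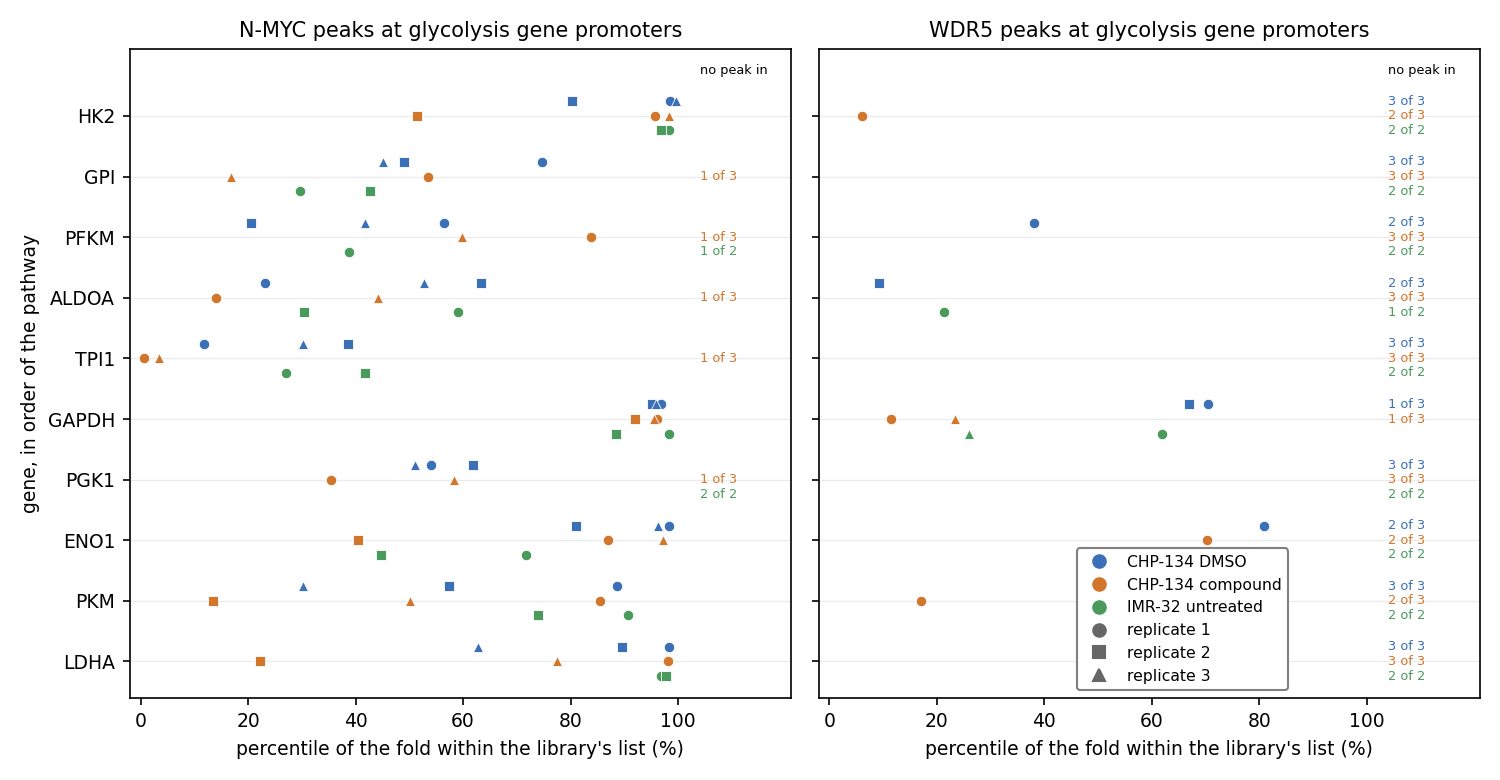
Percentile (%, horizontal axis) of the strongest peak at each glycolysis gene within its library's list, for N-MYC (left) and WDR5 (right). Each point is a library, colours mark the group and shapes the replicate, and the numbers at the right edge give how many libraries of the group list no peak. GAPDH stands at or above 88.5 in all N-MYC lists, and replicate 2 under the compound (orange squares) is the lowest listed compound library at HK2, GAPDH, ENO1, PKM and LDHA.

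In the order of the mean percentile with DMSO (mean ± SD, n = 3 libraries), GAPDH stood at 96.0 ± 0.927, HK2 at 92.7 ± 10.9, ENO1 at 91.9 ± 9.39 and LDHA at 83.5 ± 18.5. A middle group held PKM at 58.8 ± 29.2, GPI at 56.3 ± 16.1 and PGK1 at 55.6 ± 5.56. ALDOA at 46.4 ± 20.9, PFKM at 39.6 ± 18.1 and TPI1 at 26.9 ± 13.8 closed the order. Neighbours in this order differed by less than the larger of their SDs. With a missing peak set to 0, 274 of the 20162 genes had a higher mean than GAPDH, 530 than HK2 and 6221 than TPI1.

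WDR5 peaks were sparse at the glycolysis genes. They were listed in at least 1 library at 6 genes (HK2, PFKM, ALDOA, GAPDH, ENO1 and PKM) and in none of the 8 lists at GPI, TPI1, PGK1 and LDHA. By library, 3, 2 and 0 of the 10 genes had a WDR5 peak with DMSO, where 19.2%, 8.31% and 7.28% of all genes did. Under the compound the counts were 4, 0 and 1, against 16.4%, 0.0942% and 1.96%, and in IMR-32 they were 2 and 1, against 8.03% and 6.03%. Where no peak is listed the signal fell short of the authors' threshold, and the protein may still be present.

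GAPDH was the gene with repeated WDR5 peaks, in 6 of 8 lists. Its strongest WDR5 peak stood at 70.4 and 66.9 in DMSO replicates 1 and 2, with none in replicate 3, at 11.5 and 23.4 in compound replicates 1 and 3, with none in replicate 2, and at 61.8 and 26.1 in IMR-32 replicates 1 and 3. These peaks form an upstream and an intron 2 region, each missing from 3 of the 6 CHP-134 lists, so they were tested only with a missing peak set to percentile 0, over the 1718 WDR5 regions in at least 2 libraries of either group. There the upstream GAPDH peak stood at 70.4, 66.9 and 0 with DMSO and at 11.5, 0 and 0 under the compound, a difference of -41.9 (SE 22.5) that did not pass (limma adjusted p = 0.234), and the compound peak at 11.5 had its summit apart from the DMSO summits. The intron 2 peak stood at 15.2, 0 and 0 with DMSO and at 7.65, 0 and 23.4 under the compound, a difference of 5.31 in the other direction (SE 7.88, limma adjusted p = 0.649). Of all these regions 321 were called, all lower under the compound (18.7%), in lists of 15 and 401 peaks for replicates 2 and 3. Against IMR-32, in the same way over 2020 regions, the difference was -1.81 at the upstream peak (SE 28.5, limma adjusted p = 0.966) and 19.1 at the intron 2 peak (SE 9.73, limma adjusted p = 0.346), and 0 regions were called (0%), with 424 at an unadjusted p under 0.05. The −log10 q-value of the strongest GAPDH peak was 8.99 and 11.3 with DMSO and 2.10 and 4.78 under the compound.

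The strongest WDR5 summits at GAPDH lay at -346 and -389 bp with DMSO and at -329 and -349 bp in IMR-32, 45, 2, 66 and 46 bp from the nearest N-MYC summit of the same cells. Further WDR5 summits lay in intron 2 at 533 bp (DMSO replicate 1, 15.2), 173 bp from an N-MYC summit, and at 715 and 643 bp in IMR-32 (35.1 and 13.1), 26 and 17 bp from one. Under the compound the summits were at -72 and 602 bp in replicate 1 and at 643 bp in replicate 3. The nearest N-MYC summit of those cells was 179, 853 and 894 bp away. The WDR5 peaks at 602 and 643 bp still overlapped N-MYC peaks of 2 compound libraries. Those N-MYC peaks were 1973 and 1759 bp wide, each with its listed summit upstream, so these distances do not show the proteins apart. Neither compound library listed a WDR5 summit between -418 and -251 bp. Of the 10 WDR5 peaks at GAPDH, 4 had an E-box within 100 bp of the summit, all of them in intron 2.

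The other WDR5 peaks each appeared in few lists. At ENO1 a peak stood at 80.9 in DMSO replicate 1, with its summit 1 bp from an N-MYC summit, and at 70.3 in compound replicate 1. At ALDOA it stood at 9.22 in DMSO replicate 2 and at 21.3 in IMR-32 replicate 1, with summits at -404 and -396 bp. HK2 was listed once, at 6.05 in compound replicate 1, and PKM in that same library, with 2 peaks at 17.1. The WDR5 peak counted for PFKM, at 38.1 in DMSO replicate 1, lay at -13051 bp at a distant PFKM TSS within 1 kb of a SENP1 TSS, and no N-MYC peak overlapped it.

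GAPDH was also the 1 gene of the 10 that met the call for both proteins in the same cells. Over all protein-coding genes, 7.74% did so with DMSO, 1.23% under the compound and 2.63% in IMR-32.

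The E-box share of the N-MYC sites was set beside that of all N-MYC sites at promoters. Each site that was in at least 2 libraries was represented by the summit with the highest −log10 q-value. With DMSO, CACGTG lay within 100 bp of the summit at 7 of 14 glycolysis sites (50.0%), against 27.0% of 7305 promoter sites. Within 50 bp it was 4 of 14 (28.6%) against 20.4%. Under the compound it was 6 of 13 (46.2%) against 30.7%, and in IMR-32 5 of 8 (62.5%) against 42.6%. Around the canonical TSS of all protein-coding genes, 5.68% of windows of the same length held it on either strand. The 7 genes with DMSO were ALDOA, ENO1, GPI, HK2, LDHA, PFKM and PGK1. Of the 4 genes with the highest mean N-MYC percentiles with DMSO, HK2, ENO1 and LDHA each have several E-boxes under the site, and GAPDH has its single E-box away from its strongest summit. With 8 to 14 glycolysis sites per group these shares are descriptions and were not tested. The motif searched reads the same on both strands, and its absence says only that these letters were not in the window.

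**Figure D3:**
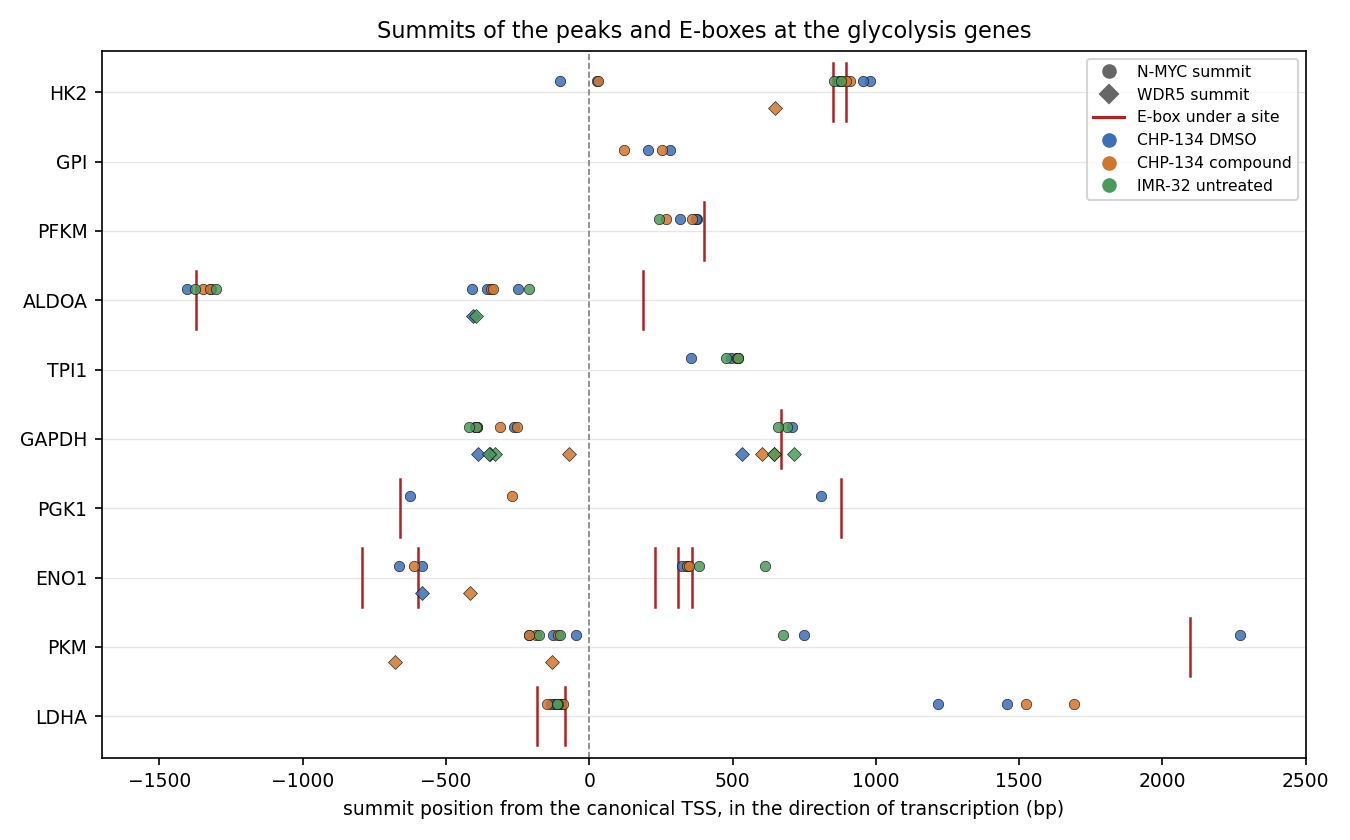
Summit positions (bp from the canonical TSS, in the direction of transcription, horizontal axis) of N-MYC peaks (circles) and WDR5 peaks (diamonds) at each glycolysis gene, coloured by group, with E-boxes under the sites as red lines. LDHA summits lie between its E-boxes and HK2 summits beside its pair, while the upstream GAPDH summits lie away from the E-box at 666 bp. Summits at GPI (-5902 to -5736 bp), PGK1 (-193751 to -193649 bp) and PFKM (-13051 bp) lie outside the axis.

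The compound was compared with DMSO for N-MYC in CHP-134 cells. None of the 5 glycolysis sites listed in all 6 libraries differed between the groups beyond the spread between libraries. Because list lengths differ, each region was ranked among the 2652 regions with an N-MYC peak in all 6 libraries, and the percentiles were tested with limma. HK2, GAPDH, ENO1, PKM and LDHA have a site among these regions, and the other 5 genes do not, since they have no peak in compound replicate 2.

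Among the shared regions, ENO1 stood at 90.5, 47.9 and 84.3 with DMSO and at 59.8, 39.3 and 87.7 under the compound. The difference, compound minus DMSO, was -12.0 percentile points (SE 16.6), and it ran from -25.1 without DMSO replicate 2 to -1.42 without compound replicate 2. LDHA stood at 90.3, 67.2 and 23.7 with DMSO and at 92.2, 21.3 and 39.8 under the compound, a difference of -9.31 (SE 23.4). In both genes the groups overlapped, and the spread within a group was larger than the difference between them.

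HK2 stood at 91.5, 46.6 and 97.9 with DMSO and at 83.7, 50.3 and 92.6 under the compound, a difference of -3.13 (SE 14.5). GAPDH stood at 84.2, 83.6 and 83.3 with DMSO and at 84.7, 91.1 and 81.4 under the compound, a difference of 2.04 (SE 5.73). PKM stood at 53.7, 18.02 and 2.998 with DMSO and at 56.4, 12.6 and 15.4 under the compound, a difference of 3.21 (SE 16.2). The limma adjusted p was 1 for all 5 genes, and the exact permutation p (two-sided) ranged from 0.6 to 0.8, where 3 libraries against 3 cannot go below 0.1.

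Over all 2652 regions limma called 0 (0%) at an adjusted p under 0.05, with 22 at an unadjusted p under 0.05. The groups did not overlap in 98 regions (3.70%), and none of the 5 glycolysis sites was among them. The replicate numbers paired the N-MYC libraries: replicate 2 was low in both groups at HK2 and ENO1. With the replicate number as a block the SE fell to 3.72 at GAPDH and 5.48 at HK2. The limma adjusted p was then 0.83 to 0.951 for the 5 genes. This paired fit called 0 of the 2652 regions, with 148 at an unadjusted p under 0.05.

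**Figure D4:**
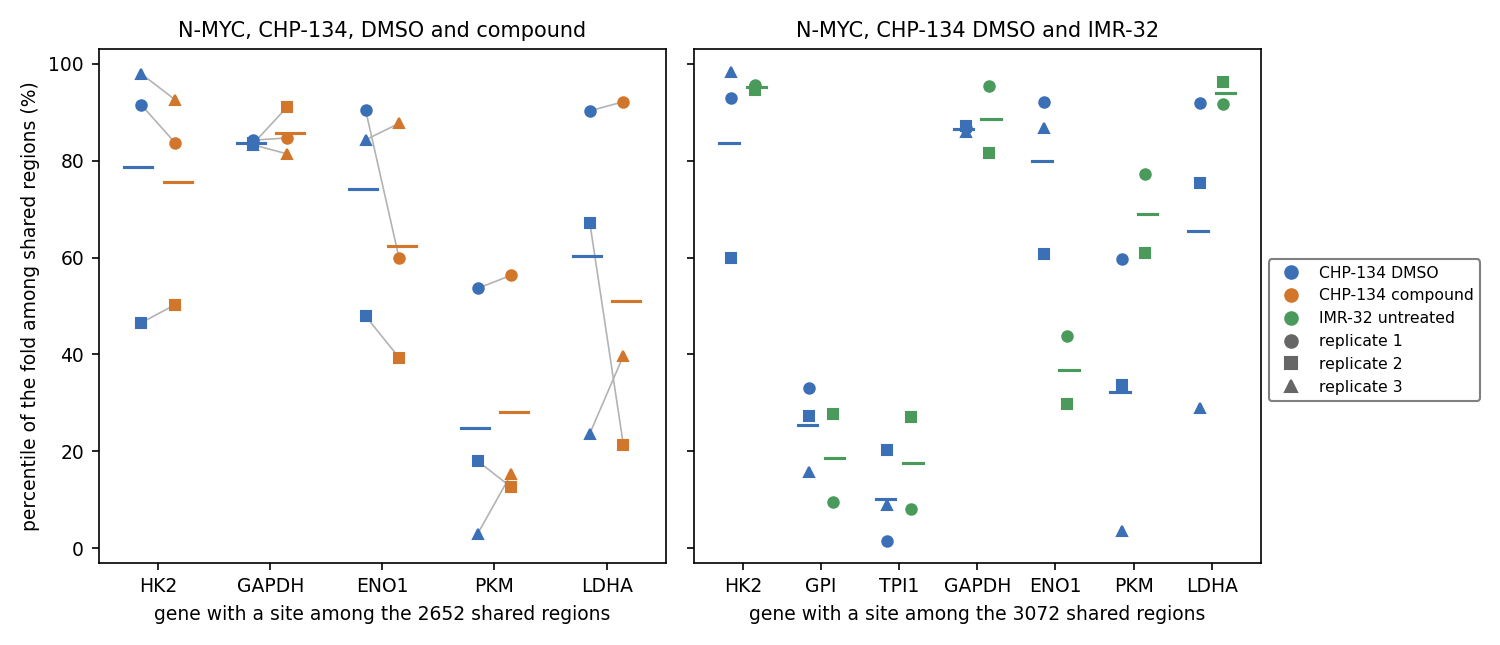
Percentile of the N-MYC fold among regions shared by all libraries compared (%, vertical axis), for glycolysis genes with such a site, in CHP-134 with DMSO and compound (left, grey lines join equal replicate numbers) and in CHP-134 with DMSO and IMR-32 (right). Points are libraries and bars are means. On the left the groups overlap at all 5 genes, and on the right they separate at ENO1 and PKM.

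In the full lists, the compound minus DMSO difference of the same replicate number was taken for each glycolysis gene with both peaks. It was not taken over all protein-coding genes, so the counts by replicate and by gene have no background share beside them. In replicate 1, 9 of 10 genes were lower under the compound, with a median difference of -6.17 percentile points. In replicate 2, all 5 genes with both peaks were lower, with a median of -40.6, in a list of 2964 peaks against 9125. In replicate 3, 5 genes were higher and 5 lower, with a median of 0.235. By gene, all available pairs were lower under the compound at 5 genes (HK2, GPI, ALDOA, TPI1 and GAPDH), all were higher at PFKM, and 4 genes were mixed. At GAPDH the differences were -0.87, -3.09 and -0.44, and at HK2 -2.71, -28.7 and -1.21. GPI, ALDOA, TPI1 and PFKM have only the pairs of replicates 1 and 3, the strongest ALDOA peak with DMSO and under the compound was at different sites, and a percentile in a full list also moves with the length of the list. With full-list percentiles, the groups did not overlap at 189 of the 2652 shared regions, 186 lower and 3 higher under the compound. Ranked among the shared regions, 58 were lower and 40 higher. GPI, ALDOA and TPI1 have no site among these 2652 regions. The cause of the lower values at these genes was not tested.

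Without compound replicate 2, 5925 regions were shared by the 5 remaining libraries, and 9 of the glycolysis genes had a site among them. PFKM stood at 26.0, 15.1 and 22.5 with DMSO and at 72.1 and 38.3 under the compound, a difference of 34.0 (SE 17.7). TPI1 stood at 2.84, 29.4 and 15.1 with DMSO and at 0.321 and 1.49 under the compound, a difference of -14.9 (SE 8.98). At both genes the groups did not overlap, as at 739 of all 5925 regions (12.5%), and neither passed the test (limma adjusted p of 1.00 for each, exact permutation p of 0.1 and 0.2). The difference was -19.8 (SE 14.4) at ALDOA and -14.4 (SE 16.3) at GPI, with overlapping groups. Over all 5925 regions limma called 0 (0%), with 76 at an unadjusted p under 0.05. This fit did not use the pairing by replicate number. The exact permutation test with 3 libraries against 2 cannot go below 0.1, so it could not have passed.

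With a missing peak set to percentile 0 of the full list, 14 N-MYC sites of the glycolysis genes were tested among 11568 regions in at least 2 libraries of either group. None passed (limma adjusted p of 0.982 to 0.997), and limma called 0 of all these regions (0%), with 407 at an unadjusted p under 0.05. This fit was not paired by replicate number either. TPI1 stood at 11.8, 38.7 and 30.2 with DMSO and at 0.605, 0 and 3.36 under the compound, a difference of -25.6 (SE 12.4, exact permutation p of 0.1). It was the 1 site of the 14 where the groups did not overlap, as at 756 of all regions (6.54%). The main GPI site differed by -32.9 (SE 30.8) and the ALDOA site at the TSS by -32.8 (SE 25.5), with overlapping groups, and at these 3 sites the 0 is that of compound replicate 2, the list of 2964 peaks. PFKM stood at 56.5, 20.5 and 41.7 with DMSO and at 83.8, 0 and 59.8 under the compound, so its groups overlapped here. By the sign of the mean difference, 12 of the 14 sites were lower and 2 higher under the compound, a count not made over all 11568 regions. Of the 756 regions without overlap, which hold only 1 of the 14 sites, 753 were lower and 3 higher.

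For WDR5, 13 regions had a peak in all 6 CHP-134 libraries, the smallest list holding 15 peaks, and no glycolysis gene was among them. With shared regions alone, the effect of the compound on WDR5 was therefore not tested at these genes.

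IMR-32 was compared with CHP-134 under DMSO for N-MYC, using the same DMSO libraries as the comparison above. Among the 3072 regions shared by these 5 libraries, 7 glycolysis genes had a site. ENO1 stood at 92.2, 60.7 and 86.7 in CHP-134 and at 43.8 and 29.7 in IMR-32, a difference, IMR-32 minus CHP-134, of -43.1 (SE 18.1, limma adjusted p = 0.319). PKM stood at 59.6, 33.6 and 3.55 in CHP-134 and at 77.2 and 60.9 in IMR-32, a difference of 36.8 (SE 21.1, limma adjusted p = 0.439) that was 22.00 without DMSO replicate 3. The groups did not overlap at ENO1 and PKM, as at 993 of all 3072 regions (32.3%), which is near the 2 of 7 seen here.

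LDHA stood at 92.0, 75.5 and 28.9 in CHP-134 and at 91.8 and 96.3 in IMR-32, a difference of 28.6 (SE 14.8). HK2 stood at 93.0, 59.8 and 98.2 in CHP-134 and at 95.6 and 94.6 in IMR-32, a difference of 11.4 (SE 8.79). GAPDH stood at 86.7, 87.2 and 85.9 in CHP-134 and at 95.5 and 81.6 in IMR-32, a difference of 1.95 (SE 6.28). The groups overlapped at these 3 genes, and only GAPDH stood above 80 in all 5 libraries. Without DMSO replicate 3 the LDHA difference was 10.04, and it was 10.3 with the replicate block and 13.75 in the full list.

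At the low end, TPI1 stood at 1.48, 20.3 and 8.98 in CHP-134 and at 8.17 and 27.1 in IMR-32, a difference of 7.36 (SE 10.0). GPI stood at 33.1, 27.3 and 15.7 in CHP-134 and at 9.49 and 27.8 in IMR-32, a difference of -6.73 (SE 12.6). The limma adjusted p of the 7 genes ran from 0.319 to 0.918, so that none passed, and limma called 0 of the 3072 regions (0%), with 430 at an unadjusted p under 0.05. For WDR5, no glycolysis gene was among the 478 regions shared by the 5 libraries of these lines. PGK1, with peaks in all DMSO libraries, had none in either IMR-32 library, and PFKM and the TSS site of ALDOA were each listed in 1 of the 2.

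The isoenzymes of the same steps were examined beside the 10 genes. Of 23 other glycolysis genes, N-MYC met the call at 6 with DMSO (26.1%), 5 under the compound (21.7%) and 4 in IMR-32 (17.4%), where the shares of all genes were 38.8%, 30.8% and 15.9%. LDHB, the heart-type lactate dehydrogenase subunit, had a mean N-MYC percentile of 83.6 ± 8.70 (SD, n = 3) with DMSO, ENO3, the muscle enolase, 83.4 ± 6.23, and PFKP, the platelet phosphofructokinase, 72.9 ± 14.0. ADPGK and ALDOC stood at 48.1 and 47.4. Genes that share a promoter with these isoenzymes were not looked up, so a peak may belong to a neighbour.

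Unlike LDHA, LDHB was listed for WDR5 in all 3 DMSO libraries, at 48.1, 31.1 and 24.6, in compound replicate 1 at 2.66, and in IMR-32 at 34.6 and 13.4. WDR5 met the call at PGAM1, a phosphoglycerate mutase, in IMR-32 and in neither CHP-134 group, at 46.7 and 24.6. No phosphoglycerate mutase is among the 10 genes.

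Of 19 genes of glucose and lactate transport and of glycolytic control, N-MYC met the call at 8 with DMSO (42.1%), 8 under the compound (42.1%) and 7 in IMR-32 (36.8%), beside 38.8%, 30.8% and 15.9% of all genes, so that the DMSO count is near the background. Strong peaks lay at TXNIP, a negative regulator of glucose uptake, at 96.7 ± 3.69 (SD, n = 3) with DMSO, and at SLC16A1, which carries lactate across the membrane, at 95.7 ± 4.27. The glucose transporter genes SLC2A4 and SLC2A1 stood at 94.2 ± 4.22 and 87.9 ± 2.95, and HIF1A, a subunit of the hypoxia-inducible factor, at 85.0 ± 5.36. SLC2A1 had no N-MYC peak in either IMR-32 library.

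WDR5 met the call with DMSO at 3 of these 19 genes (15.8%), SLC16A1, PFKFB3 and HIF1A, at 0 under the compound and at 2 in IMR-32 (10.5%), where 8.53%, 1.35% and 4.90% of all genes did. SLC16A1 stood at 81.6, 80.1 and 88.2 with DMSO, at 53.4 in compound replicate 3, and at 90.5 and 76.9 in IMR-32. PFKFB3, which makes the activator of phosphofructokinase, stood at 90.8, 83.7 and 74.6 with DMSO, at 40.0 in compound replicate 1, and at 86.1 and 82.0 in IMR-32. HIF1A stood at 57.7 and 24.6 in DMSO replicates 1 and 3 and at 52.1 in compound replicate 1, between the DMSO values, with no peak in IMR-32. Both SLC16A1 and PFKFB3 ranked above GAPDH for WDR5 in every library of DMSO-treated and untreated cells.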

How the data were processed

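Per the study's methods, Cutadapt trimming and Bowtie2 alignment to hg19 came before MACS2 peak calling (q-value of 0.05), and the authors deposited a separate list for every library. Versions and the control library are not given in the sources used here. The deposited fold is the linear ratio of a peak's signal to the local background. The deposited −log10 p-value and −log10 q-value measure the call, the deposited score is an integer form of the q-value and was not used, and the last column is the summit's distance from the start of the peak. The lists hold no read counts, so the depth is not known and intervals that need it were not computed. Folds are not comparable between lists, and a percentile depends on how many weak peaks a list holds.

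The glycolysis genes and all gene lists were chosen with earlier results of these data known. Genes and TSSs came from GENCODE 44 mapped to GRCh37, and a peak was assigned by its middle, within 1 kb of any TSS. A call needed a peak at the gene in 2 libraries of a group, after the study's consensus rule, but the peaks did not have to overlap. Regions shared by all libraries of a comparison were ranked within each library and tested with limma 3.58.1 (R 4.3.3, trend in the variance) with Benjamini-Hochberg adjustment over all shared regions, called at an adjusted p under 0.05, and single sites also with an exact permutation test. The trend, distances, windows, block and left-out libraries were varied. Groups came from the sample labels. Named genes are all 10 members, and of the other lists the 5 with the highest mean N-MYC percentile with DMSO and those where WDR5 met the call, of which 1 is not reported here. Deviations from the group means over 2652 regions correlated at 0.643, 0.624 and 0.661 between same-numbered N-MYC libraries with DMSO and compound, and at -0.358 to -0.28 between others, so these numbers pair the libraries. For WDR5 with DMSO and compound, same-numbered libraries correlated at 0.0274, 0.358 and 0.645 and others at -0.574 to 0.437. These values rest on 13 regions, too few to judge a pairing. The WDR5 fits with missing peaks at 0 were not paired. Between lines, same-numbered libraries correlated at -0.0604 to 0.0396, so no such pairing was seen. Scripts were tested on simulated data with Python 3.11.15, numpy 2.4.6 and pandas 2.3.3.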

Additional observations from a re-analysis of the deposited data

How the results depend on the processing

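The call of 10, 10 and 8 glycolysis genes for N-MYC (DMSO, compound, IMR-32) and of GAPDH alone for WDR5 in each group kept within 1.5 times for other distances to a TSS, for the summit or edge of the peak, for the canonical TSS and for basic transcripts, the last chosen after seeing the data. With a −log10 q-value of at least 5 the N-MYC counts were 10, 8 and 6, and the WDR5 count under the compound was 0. With a peak in any 1 library the WDR5 counts were 4, 4 and 2, and with a peak in every library N-MYC under the compound had 5 and WDR5 0 with DMSO and 0 under the compound. Leaving out 1 library gave 5 to 10 for N-MYC under the compound, 0 to 1 for WDR5 with DMSO (0 without replicate 1 or 2) and 0 to 1 for WDR5 under the compound (0 without replicate 1 or 3). The count of 7 sites with an E-box became 4 within 50 bp of the summit.

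Of 135 alternative values of the 12 N-MYC differences at these genes, 0 passed the test and 20 changed sign. Compound minus DMSO was -1.47 at GAPDH and -3.82 at PKM with percentiles of the full list or with missing peaks at 0, and leaving out 1 library gave -29.8 to 5.54 at LDHA, -0.444 to 4.15 at GAPDH, -11.1 to 17.6 at PKM and -19.2 to 6.38 at HK2. IMR-32 minus CHP-134 was -2.57 at GAPDH with the full list or missing peaks at 0 and -0.491 at TPI1 with a −log10 q-value of at least 5, and leaving out 1 library gave -4.4 to 6.68 at GAPDH, -0.45 to 18.7 at TPI1, -17.6 to 3.24 at GPI and -0.432 to 18.3 at HK2. The cause of these changes was not tested.

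Over all regions, the paired fit with the replicate number as a block called 0 for N-MYC in both comparisons, 8 for WDR5 compound minus DMSO, and 28 in place of 18 for WDR5 IMR-32 minus CHP-134. WDR5 compound minus DMSO called 8 of 13 regions, 0 with the full list, 321 with missing peaks at 0, and 8 to 39 with 1 library left out (39 without compound replicate 2). The 8 were 4 higher and 4 lower, in ranks among these 13 alone, where a rise at some regions forces a fall at others. The 321 were all lower, where compound replicates 2 and 3 list 15 and 401 peaks and a missing peak counted as 0. Neither count measures the response of WDR5 to the compound. WDR5 IMR-32 minus CHP-134 called 29 without the trend, 2 with the full list, 0 with missing peaks at 0, 106 with the −log10 q-value ranked, and 0 to 21 with 1 library left out (0 without DMSO replicate 1 or 2, 7 or 8 without either IMR-32 library). N-MYC IMR-32 minus CHP-134 called 85 with the −log10 q-value ranked and 0 to 30 with 1 library left out, 13 without IMR-32 replicate 1 and 30 without replicate 2.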
